A study of Rattus norvegicus with 20 samples.

Results

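What still set treated fat apart from lean fat was measured in inguinal white adipose tissue (iWAT), the fat depot under the skin of the groin, from 5 ZSF1 obese rats given Cmpd 1 and 5 untreated ZSF1 lean rats. These 10 libraries were chosen by group from the 20 bulk RNA-seq libraries of the series, which also hold 5 Obese and 5 Food matched animals. All rats were male ZSF1 animals on Purina 5008 chow. They entered a study of 10 weeks at 21 to 22 weeks of age and were about 32 weeks old at its end. Lean rats are not homozygous for leptin receptor deficiency, and the rats of the other 3 groups are homozygous for it. Cmpd 1, an inhibitor of the protein kinases PKCα and PKCβ, was mixed into the chow at approximately 50 mg per kg of body weight per day for the 10 weeks. Lean and Obese rats received chow without drug, and Food matched rats received a restricted amount of drug-free chow. Each library is 1 rat. Because no Lean rat received Cmpd 1, the genotype and the drug cannot be told apart in Cmpd 1 versus Lean, and Obese values are given beside it where they help.

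White adipose tissue stores triglyceride in adipocytes, which release fatty acids on adrenergic signals and secrete hormones such as leptin and adiponectin. In obesity the depot gains macrophages that gather around dying adipocytes, take up their lipid and turn on genes of lysosomes and lipid handling, while insulin-driven glucose transport in adipocytes declines. The leptin receptor acts mainly in the brain to restrain feeding. Whole tissue was sequenced, so fewer cells of a type and less RNA per cell cannot be told apart in any value given here.

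The libraries fitted their tissue label. Adipoq, which encodes the adipocyte hormone adiponectin, was at 6831, 6312, 7043, 6536 and 6926 CPM in Lean rats 1 to 5 and 4144, 4403, 4909, 5169 and 4232 CPM in Cmpd 1 rats 1 to 5, where CPM are counts per 1000000 reads on library sizes scaled for composition. Plin1, the coat protein of adipocyte lipid droplets, was at 2562 ± 155 CPM in Lean and 1916 ± 163 CPM in Cmpd 1 rats (mean ± SD, n = 5 in each group here and below). Between 50604956 and 68048796 reads were counted per Lean library and between 31716457 and 65759306 per Cmpd 1 library, with Cmpd 1 rat 4 the shallowest. Lean rats 1 and 2 also carried transcripts of skeletal muscle and of mesothelium, and Lean rat 5 carried transcripts of liver or intestine. Fold changes were therefore also computed without Lean rats 1 and 2, and that value stands beside each fold given here whose call changed.

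Of 17653 genes tested, 2926 (16.6%) differed between Cmpd 1 and Lean animals by a fold change over 1.5 with an adjusted p under 0.05 in edgeR's quasi-likelihood test, and such a gene is called a DEG here. Fold changes are log2 of Cmpd 1 over Lean with their standard error (SE), and each adjusted p is from edgeR over all genes tested unless another tool is named. Of these, 1318 (7.47% of genes tested) were higher in Cmpd 1 animals and 1608 (9.11%) were lower. At an adjusted p under 0.05 with any fold there were 6880 genes. For 9338 genes (52.9%) the 95% interval of the fold change lay wholly within 1.5-fold in either direction. The values of the 5 Cmpd 1 rats and the 5 Lean rats did not overlap for 4340 genes (24.6%), of which 1974 (11.2%) were lower in Cmpd 1 animals. Without Lean rats 1 and 2 there were 2342 DEGs, 1196 higher and 1146 lower, and 2113 of the 2926 were still DEGs in the same direction.

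Genes were read in 46 lists of pathways, cell types and other tissues. Cell cycle genes had 23 higher and 0 lower of 25 tested, and genes of lipid-associated macrophages had 13 higher and 0 lower of 19. Adipokines had 1 higher and 8 lower of 14, and mast cell genes had 0 higher and 5 lower of 9. The median log2 fold change was 1.16 over the cell cycle list and 1.36 over the macrophage list, against 0.005 over all genes tested. In 24 cases a list had 0 DEGs in one direction by edgeR, and in all 24 limma-voom and DESeq2 also called 0. In these cases between 0 and 6 genes had an unadjusted p under 0.05 in that direction, except for the nuclear genes of the respiratory chain, where 23 of 30 did. The lists share some genes, so their counts are not independent. Each list count below stands against 7.47% higher and 9.11% lower over all genes tested.

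**Figure D1:**
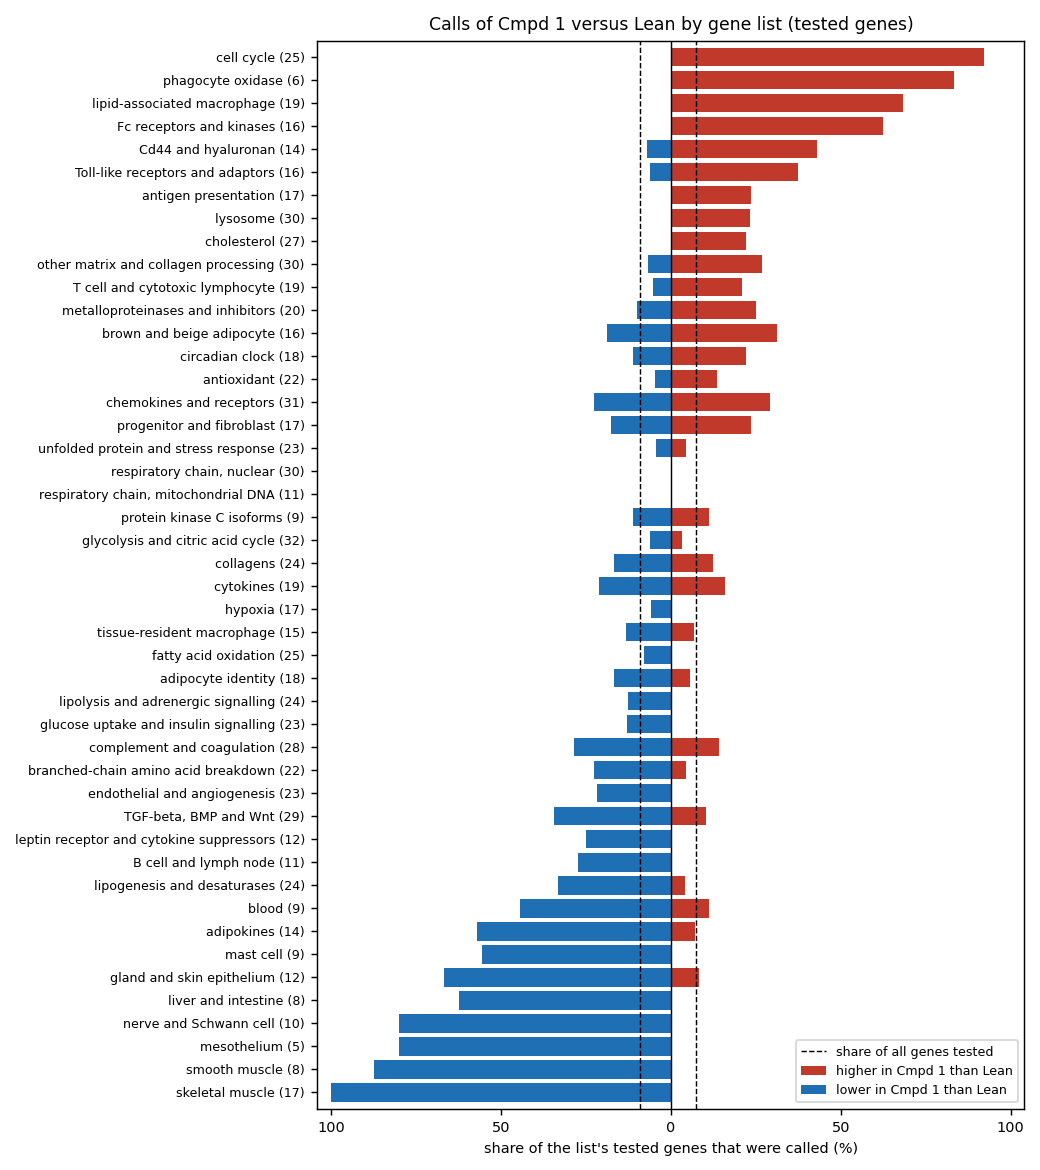
Share of each list's tested genes that were DEGs of Cmpd 1 versus Lean, in percent, with genes higher in Cmpd 1 to the right in red and genes lower to the left in blue. The number of tested genes is in brackets and dashed lines mark the shares over all genes tested, 7.47% higher and 9.11% lower. The cell cycle and phagocyte lists lie at the top, and the lists of other tissues, mast cells and adipokines lie at the bottom.

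Lepr, the leptin receptor gene that carries the deficiency, was at 7.46, 12, 2.95, 6.93 and 8.96 CPM in Lean rats 1 to 5 and 1.38, 1.34, 1.62, 1.35 and 1.48 CPM in Cmpd 1 rats 1 to 5. Every Cmpd 1 rat was below every Lean rat (log2 fold change −2.42, SE 0.25, adjusted p = 3.4e-07), and the Cmpd 1 mean of 1.43 CPM was near the Obese mean of 1.56 CPM. Among 12 genes of leptin receptor signalling and its suppressors, 0 were higher and 3 were lower than in Lean fat. Cish, a suppressor induced by cytokine receptors through STAT5, was at 76.0, 82.4, 32.9, 52.9 and 69.0 CPM in Lean rats 1 to 5 and 8.53, 8.14, 12.1, 33.3 and 13.6 CPM in Cmpd 1 rats 1 to 5. Cmpd 1 rat 4 was the highest of its group for Cish and lay just above Lean rat 3, so the groups overlapped (log2 fold change −2.07, SE 0.31, adjusted p = 2.5e-05). Socs2, a related suppressor, was also lower (log2 fold change −0.73, SE 0.12, adjusted p = 8.5e-05), and its groups did not overlap. Stat5a and Stat5b, transcription factors that act downstream of such receptors, had intervals within 1.5-fold of Lean, with log2 fold changes of −0.14 and −0.07.

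Of 9 genes for protein kinase C isoforms, 1 was higher and 1 was lower, together 22.2% of the list against 16.6% of all genes tested. Prkcd, which encodes PKCδ, was at 30.0, 32.2, 39.8, 42.4 and 38.0 CPM in Lean rats 1 to 5 and 70.0, 69.0, 70.4, 58.0 and 66.3 CPM in Cmpd 1 rats 1 to 5, with no overlap between the groups (log2 fold change 0.87, SE 0.10, adjusted p = 1.6e-06). Prkcz, which encodes PKCζ, was lower with all Lean rats (log2 fold change −1.27, SE 0.39, adjusted p = 0.014), but without Lean rats 1 and 2 its log2 fold change was −0.81 with an edgeR adjusted p of 0.15. The genes of the kinases that the compound inhibits were not DEGs. Prkca was at 15.7 ± 2.4 CPM in Lean and 13 ± 1.92 CPM in Cmpd 1 rats (log2 fold change −0.28, SE 0.11, adjusted p = 0.0501). Prkcb was at 9.07 ± 1.51 CPM in Lean and 12.7 ± 0.537 CPM in Cmpd 1 rats, and passed on p but not on fold (log2 fold change 0.49, SE 0.09, adjusted p = 1.8e-04). Its Obese mean was 16.6 CPM.

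Mmp12, which encodes macrophage elastase and lies on chromosome 8 at 5606592 to 5616493 in rn6, had the largest increase among genes of at least 1 CPM without overlap. It was at 0.196, 0.495, 1.51, 1.59 and 0.520 CPM in Lean rats 1 to 5 and 29.8, 45.5, 27.5, 13.1 and 23.4 CPM in Cmpd 1 rats 1 to 5. The lowest of the treated rats was several times above the highest Lean rat (log2 fold change 5.03, SE 0.40, adjusted p = 1.8e-08). In Obese rats its mean was 52.1 CPM, and Cmpd 1 versus Obese gave a log2 difference of −0.90 (adjusted p = 0.054). The next 9 increases by size had log2 fold changes between 3.05 and 4.13. They were Vsig8, Clec2dl1, Ncan, Wfdc8, Mcoln2, Hs3st6, Cadps, Oscar and Atp6v0d2. Among them are parts of the endosome and lysosome and a myeloid receptor. Mcoln2, an ion channel of endosomes and lysosomes, was at 0.157, 0.141, 0.720, 1.18 and 0.428 CPM in Lean rats 1 to 5 and 6.44, 7.0, 5.27, 3.06 and 4.64 CPM in Cmpd 1 rats 1 to 5. Oscar, an immune receptor first described on osteoclasts, was at 0.235, 0.325, 0.591, 0.269 and 0.199 CPM in Lean rats 1 to 5 and 4.11, 3.87, 2.73, 1.99 and 2.92 CPM in Cmpd 1 rats 1 to 5. Atp6v0d2, a subunit of the vacuolar proton pump found in macrophages and osteoclasts, was at 0.0783, 0.255, 0.498, 1.01 and 0.367 CPM in Lean rats 1 to 5 and 4.14, 4.42, 3.46, 2.91 and 3.41 CPM in Cmpd 1 rats 1 to 5. For all 3 the Lean rats spread among themselves, and their place below each treated rat was part of the rule. Cadps, a protein of vesicle release, was at 1.40 ± 0.955 CPM in Lean and 14 ± 3.30 CPM in Cmpd 1 rats, and Clec2dl1, a lectin-like gene of a multigene family whose reads may be shared with its relatives, was at 1.62 ± 1.16 CPM in Lean and 24.1 ± 3.85 CPM in Cmpd 1 rats. Ncan, Wfdc8 and Hs3st6 were low in both groups, with Cmpd 1 means of 1.08, 1.24 and 1.25 CPM.

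Genes of macrophages that take up lipid were higher in treated than in lean fat. Of 19 tested genes of lipid-associated macrophages, 13 were higher and 0 lower, and with Lean rats 1 and 2 left out 14 were higher and 1, Acp5, was lower at −0.68. Trem2, a lipid-sensing receptor of these cells, was at 22.6, 24.8, 35.2, 38.0 and 24.4 CPM in Lean rats 1 to 5 and 132, 121, 87.9, 80.4 and 95.7 CPM in Cmpd 1 rats 1 to 5, with no overlap (log2 fold change 1.84, SE 0.18, adjusted p = 1.4e-07). Lipa, the lysosomal acid lipase that breaks down cholesteryl esters and triglyceride, was at 88.1, 90.5, 146, 152 and 100 CPM in Lean rats 1 to 5 and 500.1, 498, 395, 306 and 373 CPM in Cmpd 1 rats 1 to 5 (log2 fold change 1.85, SE 0.17, adjusted p = 1.2e-07). Clec7a, a receptor for fungal glucans, was at 7.55 ± 2.56 CPM in Lean and 35.2 ± 9.84 CPM in Cmpd 1 rats (log2 fold change 2.23, SE 0.22, adjusted p = 2.6e-07). Spp1, which encodes osteopontin, was at 20.3, 39.0, 103, 165 and 44.1 CPM in Lean rats 1 to 5 and 506, 458, 452, 250.1 and 404 CPM in Cmpd 1 rats 1 to 5. Lean rats differed widely among themselves for Spp1 and still lay below each of the treated animals (log2 fold change 2.48, SE 0.40, adjusted p = 6.1e-05). Gpnmb and Itgax, a glycoprotein and an integrin of these macrophages, had log2 fold changes of 2.36 and 2.38. In Cmpd 1 versus Obese animals 4 of the 19 genes were lower, namely Cd68, Plin2, Msr1 and Clec7a, whose log2 differences were −0.60, −0.70, −0.80 and −0.79, against 2.8% of all genes lower in that comparison. The cathepsins Ctsl and Ctsk had intervals within 1.5-fold of Lean, with log2 fold changes of 0.18 and 0.12.

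Genes of tissue-resident macrophages did not follow the same pattern, with 1 higher and 2 lower of 15. Mertk, a receptor for the uptake of dying cells, was at 40.2, 32.6, 56.7, 66.7 and 45.2 CPM in Lean rats 1 to 5 and 172, 141, 142, 115 and 132 CPM in Cmpd 1 rats 1 to 5 and was higher (log2 fold change 1.54, SE 0.18, adjusted p = 1.4e-06). Cd163, the scavenger receptor for haemoglobin, was at 195, 168, 208, 197 and 188 CPM in Lean rats 1 to 5 and 37.9, 89.2, 101, 123 and 124 CPM in Cmpd 1 rats 1 to 5. Every treated rat was below every Lean rat for Cd163, with Cmpd 1 rat 1 far below the rest (log2 fold change −1.01, SE 0.23, adjusted p = 0.0014). F13a1, which encodes a coagulation factor subunit made by resident macrophages, likewise did not overlap and was lowest in Cmpd 1 rat 1 (log2 fold change −0.88, SE 0.25, adjusted p = 0.0091). Csf1r, the receptor for the growth factor of all macrophages, was at 338 ± 13.3 CPM in Lean and 377 ± 28.4 CPM in Cmpd 1 rats and its interval lay within 1.5-fold (log2 fold change 0.16, SE 0.07, adjusted p = 0.084). Folr2 was likewise within 1.5-fold, at a log2 fold change of 0.05. Ptprc, which encodes the leukocyte antigen CD45, was at 52.0, 61.6, 76.8, 76.0 and 63.0 CPM in Lean rats 1 to 5 and 162, 158, 152, 120.1 and 138 CPM in Cmpd 1 rats 1 to 5, with no overlap (log2 fold change 1.15, SE 0.11, adjusted p = 1.8e-07). Its Obese mean was 214 CPM, and the log2 difference between Cmpd 1 and Obese was −0.55 (adjusted p = 0.0035).

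Signalling genes of phagocytes held many that were higher. Of 16 genes for Fc receptors and their kinases, 10 were higher and 0 lower, among them Fgr, Rac2 and Syk. Syk, the kinase that Fc receptors recruit, was at 30.7, 33.8, 47.5, 49.4 and 34.3 CPM in Lean rats 1 to 5 and 116, 118, 96.2, 81.0 and 105 CPM in Cmpd 1 rats 1 to 5 (log2 fold change 1.40, SE 0.14, adjusted p = 2.1e-07). Fgr, a kinase of the Src family in myeloid cells, had a log2 fold change of 1.03, and none of these 3 genes overlapped between the groups. Of 6 genes of the phagocyte oxidase, the enzyme that makes superoxide, 5 were higher. Cyba and Cybb, its membrane subunits, were at 33.8 ± 2.62 CPM in Lean and 79.8 ± 13.1 CPM in Cmpd 1 rats and at 105 ± 15.1 CPM in Lean and 229 ± 32.3 CPM in Cmpd 1 rats, with log2 fold changes of 1.24 (SE 0.11) and 1.13 (SE 0.12). Of 16 genes for Toll-like receptors and adaptors, 6 were higher and 1 lower, or 6 and 2 without Lean rats 1 and 2. Tlr13, Tlr8 and Nod2, sensors of microbial nucleic acid and cell wall, and the adaptor Tyrobp had log2 fold changes of 1.43, 1.19, 1.30 and 1.19. Myd88, the adaptor shared by most of these receptors, lay within 1.5-fold of Lean, at 0.07 on the log2 scale. All named fold changes in these 3 lists came with an adjusted p of at most 5.5e-06 from edgeR, apart from Myd88 (adjusted p = 0.23).

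Of 17 genes of antigen presentation, 4 were higher than in Lean animals and 6 were lower than in Obese animals, against 2.8% of all genes for the latter. Cd74, the chaperone of class II molecules, was at 812, 686, 803, 706 and 781 CPM in Lean rats 1 to 5 and 1321, 1501, 1002, 1002 and 1114 CPM in Cmpd 1 rats 1 to 5. Its groups did not overlap (log2 fold change 0.65, SE 0.10, adjusted p = 2.7e-05), the Obese mean was 1910 CPM, and without Cmpd 1 rat 2 the fold fell to 0.55 on the log2 scale, under the fold threshold. Ciita, the master regulator of class II genes, had a log2 fold change of 1.14 over Lean and a difference of −0.57 from Obese. RT1-Bb, a class II chain whose reads may be shared with other RT1 genes, had 0.72 over Lean and −0.69 against Obese. Tap1 and Psmb9, of the class I pathway, had intervals within 1.5-fold of Lean.

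Chemokines and their receptors went both ways, with 9 higher and 7 lower of 31. Ccl3 and Ccl4, which attract monocytes and T cells, were higher, with log2 fold changes of 2.05 and 1.54. Cxcr2, the neutrophil chemokine receptor, was at 7.54, 6.63, 8.36, 9.69 and 8.84 CPM in Lean rats 1 to 5 and 0.998, 1.17, 1.33, 1.32 and 1.77 CPM in Cmpd 1 rats 1 to 5. Each Lean rat was far above each treated rat (log2 fold change −2.64, SE 0.18, adjusted p = 2.3e-09). Cxcr2 in Cmpd 1 animals was also below the Obese mean of 2.15 CPM (log2 difference −0.70, adjusted p = 0.011). Of 19 cytokine genes, 3 were higher and 4 lower. Tgfb1, a growth factor of tissue repair, was at 40.5, 43.4, 48.6, 51.2 and 46.0 CPM in Lean rats 1 to 5 and 123, 98.6, 85.6, 88.2 and 110.2 CPM in Cmpd 1 rats 1 to 5 (log2 fold change 1.14, SE 0.10, adjusted p = 5.2e-08). Il33, an alarmin of stromal cells, was at 168 ± 24.5 CPM in Lean and 84.9 ± 15.4 CPM in Cmpd 1 rats (log2 fold change −0.98, SE 0.15, adjusted p = 2.9e-05). Tgfb2 was lower with all rats (log2 fold change −0.65, SE 0.16, adjusted p = 0.003), but its log2 fold change was −0.53 without Lean rats 1 and 2 and −0.56 without Cmpd 1 rat 1, both under the fold threshold. Csf1 and Il16 lay within 1.5-fold of Lean.

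Of 19 genes of T and cytotoxic cells, 4 were higher and 1 lower, together 26.3% of the list against 16.6% of all genes tested. Cd4, which rat macrophages also carry, was at 154 ± 13.1 CPM in Lean and 285 ± 37.0 CPM in Cmpd 1 rats (log2 fold change 0.89, SE 0.10, adjusted p = 8.6e-07), and Lck, a T cell kinase, had a log2 fold change of 0.75. Zap70 and Cd3e, at under 4 CPM in every rat, had log2 fold changes of 0.77 and 0.62, and without Lean rats 1 and 2 they stood at 0.74 and 0.62 with an edgeR adjusted p of 0.056 and 0.054, so that the fold stayed past the threshold and the p did not. Cd3e also did not pass when Lean rat 1 or 4 or Cmpd 1 rat 2 or 4 was left out, with log2 fold changes from 0.50 to 0.54. The cytotoxic genes Prf1 and Nkg7 had intervals within 1.5-fold. Of 9 mast cell genes, 0 were higher and 5 lower, with all Lean rats and without Lean rats 1 and 2. Cpa3, a mast cell carboxypeptidase, was at 77.0, 64.8, 60.9, 68.4 and 69.9 CPM in Lean rats 1 to 5 and 18.3, 35.8, 34.9, 34.7 and 22.8 CPM in Cmpd 1 rats 1 to 5. All treated rats lay below all Lean rats (log2 fold change −1.22, SE 0.24, adjusted p = 3.5e-04). Cma1, Ms4a2 and Mcpt1, a chymase, a chain of the IgE receptor and a protease of a multigene family, had log2 fold changes of −1.31, −1.04 and −1.0. Of 11 genes of B cells and lymph nodes, 3 were lower, and all 3 are chemokines of lymphoid tissue. Cxcl13 was at 63.4, 31.1, 62.9, 67.6 and 55.9 CPM in Lean rats 1 to 5 and 8.41, 16.6, 16.8, 27.6 and 11.1 CPM in Cmpd 1 rats 1 to 5 (log2 fold change −1.81, SE 0.32, adjusted p = 1.5e-04), and Ccl21 was at 28.1, 53.6, 22.1, 11.5 and 30.2 CPM in Lean rats 1 to 5 and 0.560, 0.268, 4.98, 0.0306 and 0.422 CPM in Cmpd 1 rats 1 to 5 (log2 fold change −4.54, SE 1.21, adjusted p = 0.005). Ccl19 was under 1.2 CPM in every rat, with a log2 fold change of −1.94. It did not pass without Lean rats 1 and 2 (log2 fold change −1.35, adjusted p = 0.2), without either of them, or without Cmpd 1 rat 1, 4 or 5, where the adjusted p ran from 0.064 to 0.074. The summed level of the B cell and lymph node list was 80.9 to 94.5 CPM in Lean and 10.01 to 28.5 CPM in Cmpd 1 animals, and the part of lymph node tissue in these differences was not tested.

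Cell cycle genes were nearly all higher, with 23 of 25 higher and 0 lower, and 21 higher without Lean rats 1 and 2. Mcm5, of the helicase that opens DNA for replication, was at 3.56, 3.02, 5.37, 4.26 and 2.83 CPM in Lean rats 1 to 5 and 18.7, 14.7, 11.4, 9.37 and 16.2 CPM in Cmpd 1 rats 1 to 5. The groups did not overlap (log2 fold change 1.90, SE 0.19, adjusted p = 2.1e-07), and the Obese mean was 19.8 CPM. Mki67, the marker of cycling cells, was at 6.52, 5.70, 12.1, 10.6 and 8.56 CPM in Lean rats 1 to 5 and 38.6, 28.2, 24.4, 16.9 and 26.7 CPM in Cmpd 1 rats 1 to 5 (log2 fold change 1.64, SE 0.21, adjusted p = 4.6e-06). Birc5, Mcm3 and Plk1, with roles in division and replication, had log2 fold changes of 1.86, 1.25 and 1.87. The list also holds inhibitors of the cycle. Cdkn2a was at 0.0196, 0.0707, 0.0369, 0.218 and 0.0764 CPM in Lean rats 1 to 5 and 0.802, 0.436, 0.541, 0.643 and 0.598 CPM in Cmpd 1 rats 1 to 5 (log2 fold change 2.79, SE 0.38, adjusted p = 7.6e-06), a low level that was above Lean in every treated rat, and Cdkn1a and Cdkn2b had log2 fold changes of 0.83 and 0.74. Pcna lay within 1.5-fold of Lean at 0.25. Against Obese animals 11 of the 25 genes were lower, where 2.8% of all genes tested were. Mki67 stood at −0.99, Top2a at −0.97 and Cdk1 at −0.94 on the log2 scale in that comparison. At the level of the group means, Cmpd 1 fat thus lay between Lean and Obese fat for these 3 genes, with Mki67 at 8.69, 27 and 53.7 CPM in Lean, Cmpd 1 and Obese rats.

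Because cell cycle genes moved together, their promoters were read for a pair of motifs known from genes of the division phase, CCAAT and TTTGAA, searched on both strands in the 250 bases before the RefSeq start (build GRCr8). Of the 23 genes, 18 matched a promoter entry, and Aurkb, Ccna2, Ccne2, Mcm4 and Rrm2 did not. CCAAT was present in 10 of the 18 (55.6%) and in 34% of 33469 promoter windows of the same length over the genome. TTTGAA was present in 7 (38.9%) and in 16.2% of all windows, and 5 genes held both (27.8%) against 5.87% of all windows. These were Birc5, Mki67, Top2a, Cdk1 and Cdc20, and the windows of the 3 with the smallest adjusted p are shown, 5′ to 3′ on the gene's strand, with the motifs of either strand in capitals. The 3 windows lie at chr10:103571896-103572145 (plus strand), chr1:199952594-199952843 (minus strand) and chr10:84473094-84473343 (minus strand). In the Mki67 window 1 TTTGAA and 1 CCAAT on the opposite strand share letters.
Birc5: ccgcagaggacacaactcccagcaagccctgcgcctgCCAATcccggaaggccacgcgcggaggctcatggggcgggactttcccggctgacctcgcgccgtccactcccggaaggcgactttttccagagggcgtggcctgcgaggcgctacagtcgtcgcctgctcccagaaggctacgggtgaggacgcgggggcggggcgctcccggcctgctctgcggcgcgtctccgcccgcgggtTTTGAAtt
Mki67: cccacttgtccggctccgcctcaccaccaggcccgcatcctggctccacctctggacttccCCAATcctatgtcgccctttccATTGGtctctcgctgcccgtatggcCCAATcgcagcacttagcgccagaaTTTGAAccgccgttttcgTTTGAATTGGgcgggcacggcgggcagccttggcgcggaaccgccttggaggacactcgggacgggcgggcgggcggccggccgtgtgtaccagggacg
Top2a: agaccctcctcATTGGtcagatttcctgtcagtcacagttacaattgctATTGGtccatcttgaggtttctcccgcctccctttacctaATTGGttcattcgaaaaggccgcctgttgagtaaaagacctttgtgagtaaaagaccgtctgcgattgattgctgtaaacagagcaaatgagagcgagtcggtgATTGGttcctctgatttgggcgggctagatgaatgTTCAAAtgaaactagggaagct
Mki67 and Top2a each held 4 copies of CCAAT in this window and Birc5 held 1. A match of letters describes the window and is no evidence of binding.

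**Figure D2:**
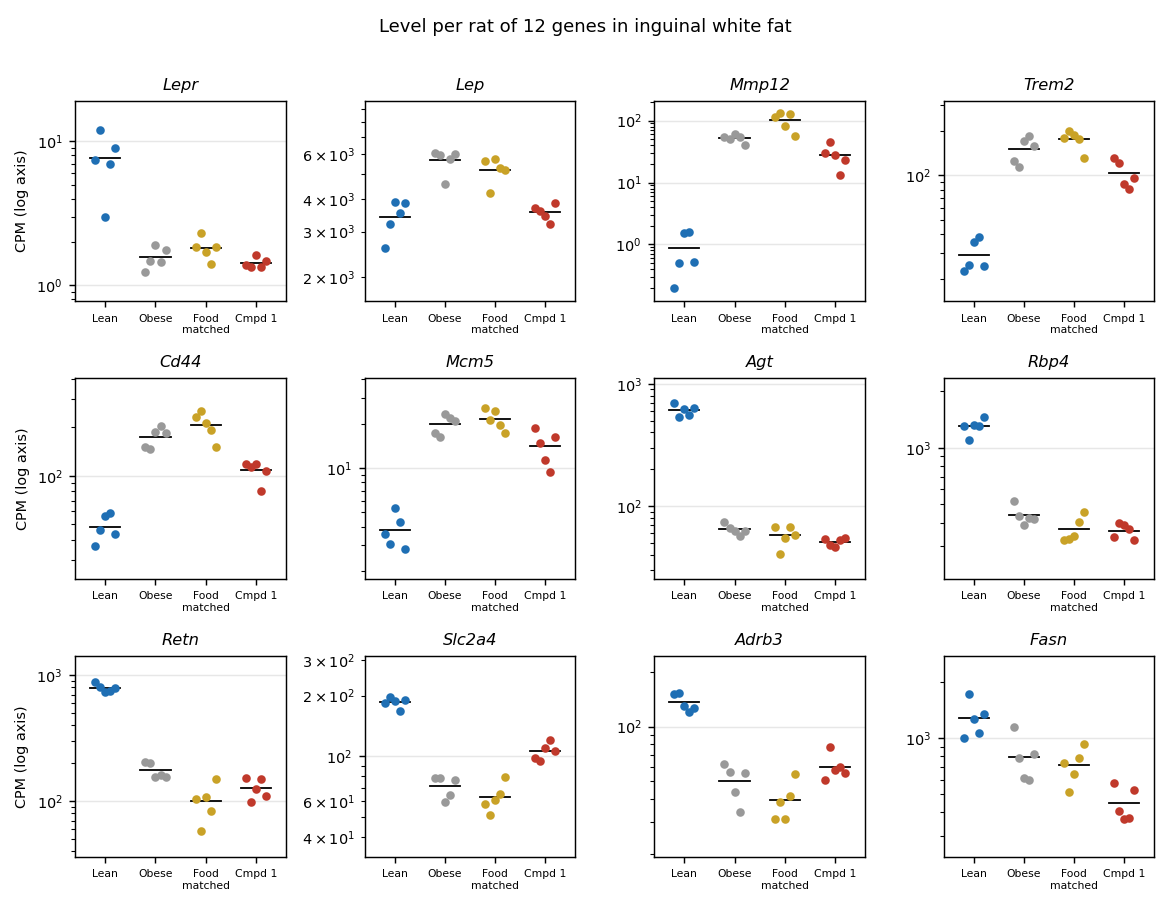
Level of 12 genes in CPM, on log axes, for each of the 20 rats, with a line at the mean of 5 rats per group. The Cmpd 1 means of Mmp12, Trem2, Cd44 and Mcm5 lie between those of Lean and Obese rats, Lep overlaps with Lean rats, Agt, Rbp4 and Retn lie far below Lean rats in both Obese and Cmpd 1 rats, and Fasn lies below both.

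Matrix genes were higher more often than lower outside the collagens. Of 30 genes for other matrix proteins and collagen processing, 8 were higher and 2 lower, and without Lean rats 1 and 2 there were 5 and 2. Bgn, the proteoglycan biglycan, was at 339, 343, 259, 326 and 288 CPM in Lean rats 1 to 5 and 542, 603, 543, 494 and 551 CPM in Cmpd 1 rats 1 to 5 (log2 fold change 0.81, SE 0.09, adjusted p = 7.8e-07). Fn1, which encodes fibronectin, was at 855 ± 180 CPM in Lean and 1549 ± 103 CPM in Cmpd 1 rats (log2 fold change 0.86, SE 0.16, adjusted p = 1.9e-04). Fbln2 was higher in 4 of 5 treated rats than in every Lean rat, with a log2 fold change of 0.66. Pcolce was a DEG with all Lean rats at 0.64 but fell to 0.55 without Lean rats 1 and 2 and to 0.56 without Lean rat 2, under the fold threshold. Of 24 collagens, 3 were higher and 4 lower, and without Lean rats 1 and 2 there were 1 and 3. Col6a5 was at 66.7, 71.3, 51.1, 29.4 and 41.5 CPM in Lean rats 1 to 5 and 0.877, 1.93, 2.54, 1.59 and 3.74 CPM in Cmpd 1 rats 1 to 5, the largest difference of the list (log2 fold change −4.60, SE 0.75, adjusted p = 6.4e-05). Col12a1 was higher at 0.89, and Col4a4 and Col4a5, chains of basement membranes, were lower at −0.75 and −1.88. Col5a1 and Col5a2, chains of type V collagen, had intervals within 1.5-fold. Of 20 metalloproteinases and inhibitors, 5 were higher and 2 lower, or 5 and 1 without Lean rats 1 and 2. Mmp9 was at 0.724, 1.20, 2.64, 3.24 and 1.60 CPM in Lean rats 1 to 5 and 20.5, 15.8, 11.5, 9.74 and 15.3 CPM in Cmpd 1 rats 1 to 5 (log2 fold change 2.96, SE 0.29, adjusted p = 2.1e-07), Mmp19 had a log2 fold change of 1.01, and Timp1, an inhibitor of these enzymes, had one of 1.13. Timp3 and Mmp23 lay within 1.5-fold of Lean.

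Cd44, a receptor for the matrix sugar hyaluronan that the study singled out in this tissue, was at 36.4, 45.9, 56.0, 58.5 and 43.2 CPM in Lean rats 1 to 5 and 119, 113, 119, 80.7 and 108 CPM in Cmpd 1 rats 1 to 5. The groups did not overlap (log2 fold change 1.17, SE 0.15, adjusted p = 3.2e-06), and the level was below the Obese mean of 175 CPM (log2 difference −0.70, adjusted p = 0.0044). Of 14 genes around Cd44 and hyaluronan, 6 were higher and 1 lower, and since several of them were picked by the study on these samples this count is no independent evidence of direction. Il1rn, the natural blocker of the interleukin 1 receptor, was at 5.25, 9.26, 14.3, 19.5 and 7.43 CPM in Lean rats 1 to 5 and 76.8, 69.3, 67.3, 46.5 and 63.5 CPM in Cmpd 1 rats 1 to 5 (log2 fold change 2.54, SE 0.26, adjusted p = 2.6e-07). Lgals3, a galectin of macrophages, was at 289 ± 80.1 CPM in Lean and 629 ± 97.3 CPM in Cmpd 1 rats (log2 fold change 1.12, SE 0.16, adjusted p = 1.9e-05). Has2, a hyaluronan synthase, was at 8.13 ± 2.73 CPM in Lean and 6.10 ± 2.29 CPM in Cmpd 1 rats and did not pass (log2 fold change −0.41, SE 0.26, adjusted p = 0.22).

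Of 30 lysosome genes, 7 were higher, 0 lower and 18 within 1.5-fold. For 18 of the 30 every treated rat was above every Lean rat, against 13.4% of all genes, with a list median of 0.34 on the log2 scale. Npc1, which moves cholesterol out of lysosomes, was at 43.8, 47.6, 49.99, 50.7 and 46.2 CPM in Lean rats 1 to 5 and 83.3, 79.8, 78.7, 72.8 and 74.3 CPM in Cmpd 1 rats 1 to 5 (log2 fold change 0.71, SE 0.07, adjusted p = 2.1e-07). Atp6v1b2, of the proton pump, had a log2 fold change of 0.78. Mcoln1, a lysosomal channel, was within 1.5-fold but did not overlap between groups, at 0.37 (adjusted p = 6.2e-07). Of 27 cholesterol genes, 6 were higher and 0 lower than in Lean animals. Against Obese animals 6 were lower, where 2.8% of all genes tested were. Soat1, which esterifies cholesterol for storage, was at 10.7, 16.2, 17.2, 18.3 and 13.8 CPM in Lean rats 1 to 5 and 41.8, 42.4, 42.9, 32.9 and 37.5 CPM in Cmpd 1 rats 1 to 5 (log2 fold change 1.37, SE 0.15, adjusted p = 4.5e-07). Abca1, which exports cholesterol, was at 112 ± 15.1 CPM in Lean and 189 ± 9.70 CPM in Cmpd 1 rats (log2 fold change 0.76, SE 0.12, adjusted p = 4.5e-05). Mvd and Hmgcs1, of cholesterol synthesis, were higher at 0.72 and 0.64, the latter falling to 0.54 without Cmpd 1 rat 1, under the fold threshold.

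Leptin transcript was level with Lean, while 8 of 14 adipokine genes were lower and 1 was higher, and without Lean rats 1 and 2 there were 6 lower and 0 higher. Lep was at 2585, 3214, 3916, 3546 and 3873 CPM in Lean rats 1 to 5 and 3713, 3603, 3435, 3214 and 3890 CPM in Cmpd 1 rats 1 to 5. The groups overlapped, the log2 fold change was 0.06 and its 95% interval, from −0.16 to 0.28, lay within 1.5-fold of Lean. Against the Obese mean of 5666 CPM the log2 difference was −0.67 (adjusted p = 9.3e-04). Rbp4, a carrier of retinol, was at 1306, 1098, 1323, 1306 and 1467 CPM in Lean rats 1 to 5 and 336, 397, 387, 369.7 and 324 CPM in Cmpd 1 rats 1 to 5, with no overlap (log2 fold change −1.84, SE 0.10, adjusted p = 2.7e-10). Retn, which encodes resistin, was at 884, 809, 733, 744 and 783 CPM in Lean rats 1 to 5 and 153, 98.4, 125, 151 and 109 CPM in Cmpd 1 rats 1 to 5 (log2 fold change −2.64, SE 0.19, adjusted p = 3.9e-09). Cfd, which encodes adipsin, was at 3654, 2172, 2607, 2831 and 2998 CPM in Lean rats 1 to 5 and 857, 1043, 920.4, 1553 and 969 CPM in Cmpd 1 rats 1 to 5 (log2 fold change −1.42, SE 0.15, adjusted p = 6.2e-07). The Obese means of these 3 genes were 437, 176 and 848 CPM, and Cmpd 1 versus Obese gave adjusted p of 0.08, 0.08 and 0.15. Rarres2, which encodes chemerin, was lower at −0.84. Adipoq passed on p but not on fold (log2 fold change −0.56, SE 0.09, adjusted p = 3.4e-05), and it passed on both without Cmpd 1 rat 4, at −0.61. Nampt lay within 1.5-fold at 0.28.

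Of 18 genes of adipocyte identity, 1 was higher, 3 were lower and 11 lay within 1.5-fold of Lean, where 52.9% of all genes did. For 8 of the 18 every treated rat was below every Lean rat, against 11.2% of all genes, with a list median of −0.24 on the log2 scale. Cidec and Pck1, of lipid droplets and glycerol synthesis, were lower by just over the fold threshold at −0.61 and −0.61, and Pck1 fell under it without Lean rat 5 at −0.56. With scaling by library size alone both fell under it, at −0.57 and −0.57. Acvr1c, the activin receptor ALK7 of adipocytes, was at 67.2, 98.5, 93.6, 82.0 and 91.3 CPM in Lean rats 1 to 5 and 37.9, 35.8, 48.4, 54.3 and 39.4 CPM in Cmpd 1 rats 1 to 5 (log2 fold change −1.01, SE 0.14, adjusted p = 8.8e-06). Cidea, a droplet protein, was at 80.4, 80.2, 109, 101 and 98.0 CPM in Lean rats 1 to 5 and 167, 183, 134, 152 and 186 CPM in Cmpd 1 rats 1 to 5 (log2 fold change 0.81, SE 0.12, adjusted p = 2.7e-05). Fabp4, the fatty acid carrier of adipocytes, was at 8472 ± 912 CPM in Lean and 7173 ± 409 CPM in Cmpd 1 rats (log2 fold change −0.24, SE 0.08, adjusted p = 0.02), and Cd36 and Aqp7 lay within 1.5-fold.

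Of 24 genes of fat synthesis, 1 was higher, 8 were lower and 10 lay within 1.5-fold of Lean. Fasn, fatty acid synthase, was at 1007, 1724, 1275, 1069 and 1343 CPM in Lean rats 1 to 5 and 574, 407, 370.5, 372 and 525 CPM in Cmpd 1 rats 1 to 5. All treated rats lay below all Lean rats (log2 fold change −1.51, SE 0.19, adjusted p = 3.7e-06), and the Obese mean of 792 CPM was also above the treated mean (log2 difference −0.82, adjusted p = 0.0083). Acaca, acetyl-CoA carboxylase, was at 193 ± 29.2 CPM in Lean and 103 ± 9.22 CPM in Cmpd 1 rats (log2 fold change −0.91, SE 0.10, adjusted p = 1.1e-06). Fads1, a desaturase of polyunsaturated fatty acids, was at 102, 95.4, 107, 116 and 104 CPM in Lean rats 1 to 5 and 39.2, 52.2, 43.8, 50.4 and 45.5 CPM in Cmpd 1 rats 1 to 5 (log2 fold change −1.18, SE 0.08, adjusted p = 5.0e-09). Scd1, the desaturase that makes monounsaturated fatty acids, was the higher gene. It was at 915, 680.3, 1163, 1229 and 1093 CPM in Lean rats 1 to 5 and 4884, 4101, 2268, 1654 and 3887 CPM in Cmpd 1 rats 1 to 5, with no overlap (log2 fold change 1.73, SE 0.24, adjusted p = 1.2e-05), and the Obese mean was 8198 CPM. Srebf1, a regulator of these genes, had a log2 fold change of −0.64. Elovl1 and Acss2 had intervals within 1.5-fold of Lean.

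Of 24 genes of lipolysis and adrenergic signalling, 0 were higher and 3 lower, together 12.5% of the list against 16.6% of all genes tested. Adrb3, the β3 adrenergic receptor of adipocytes, was at 152, 152, 130.4, 120.2 and 126 CPM in Lean rats 1 to 5 and 50.8, 77.6, 57.4, 59.8 and 55.8 CPM in Cmpd 1 rats 1 to 5. No treated rat reached a Lean rat (log2 fold change −1.18, SE 0.16, adjusted p = 9.6e-06), and the Obese mean was 50.3 CPM. Adrb1, the β1 receptor, was at 10.4, 9.70, 5.78, 5.51 and 6.54 CPM in Lean rats 1 to 5 and 6.50, 4.91, 4.37, 8.97 and 6.24 CPM in Cmpd 1 rats 1 to 5. Its groups overlapped and it did not pass against Lean (log2 fold change −0.30, SE 0.20, adjusted p = 0.27), while against Obese rats, at a mean of 3.61 CPM, the log2 difference was 0.77 (adjusted p = 0.017). Gnai1, the inhibitory G protein subunit, and G0s2, an inhibitor of adipose triglyceride lipase, were lower at −0.89 and −0.69. Gnas and Prkaca, of the stimulating branch, had intervals within 1.5-fold.

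**Figure D3:**
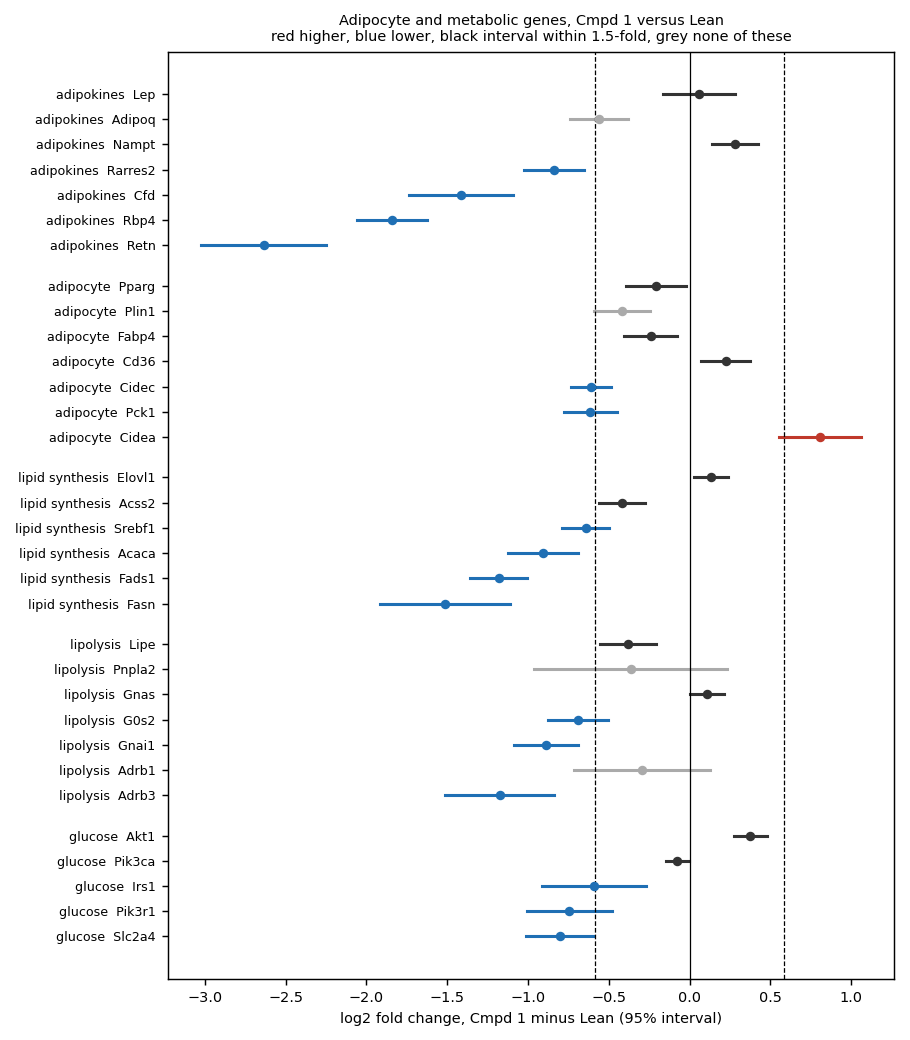
Log2 fold change of Cmpd 1 versus Lean with its 95% interval for 32 genes of adipocytes and metabolism, with dashed lines at 1.5-fold in either direction. Red genes were higher and blue genes lower by the DEG rule, black intervals lie wholly within 1.5-fold and grey genes meet none of these. Lep sits at 0.06, whereas Retn, Rbp4, Fasn and Cfd lie farthest to the left.

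Slc2a4, the insulin-responsive glucose transporter GLUT4, was at 183, 196, 187, 168 and 190.4 CPM in Lean rats 1 to 5 and 98.5, 94.8, 110, 120.4 and 106 CPM in Cmpd 1 rats 1 to 5. The treated rats lay below every Lean rat (log2 fold change −0.80, SE 0.10, adjusted p = 2.8e-06) and above the Obese mean of 71.3 CPM (log2 difference 0.57, adjusted p = 0.0015, under the fold threshold). Of 23 genes of glucose uptake and insulin signalling, 0 were higher, 3 lower and 18 within 1.5-fold. The DEGs were 13% of this list, against 16.6% of all genes tested. Pik3r1, the regulatory subunit of the insulin-activated lipid kinase, had a log2 fold change of −0.74. Irs1, a docking protein of the insulin receptor, stood at −0.59, at the fold threshold, and was under it without Lean rat 2, 3 or 5 or Cmpd 1 rat 2, 3 or 5, at −0.48 to −0.58, and with scaling by library size alone, at −0.55. Akt1 and Pik3ca had intervals within 1.5-fold, at 0.38 and −0.08. Of 22 genes of branched-chain amino acid breakdown, 1 was higher and 5 lower. Bcat2, which starts that route in mitochondria, was at 172, 128, 151, 149 and 164 CPM in Lean rats 1 to 5 and 78.0, 88.9, 81.5, 96.5 and 90.5 CPM in Cmpd 1 rats 1 to 5 (log2 fold change −0.81, SE 0.07, adjusted p = 4.0e-08). Bckdhb, Ivd and Hibadh, later steps of it, had log2 fold changes of −0.68, −0.66 and −0.60, and Hibadh was just under the fold threshold without Cmpd 1 rat 3 or 5 (−0.58 in both cases) and at −0.56 with scaling by library size alone. Bckdk, the kinase that turns the route down, lay within 1.5-fold at −0.08.

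Energy genes of mitochondria stayed close to Lean by size. Of 30 nuclear genes of the respiratory chain, 0 were DEGs and 29 had intervals within 1.5-fold, against 52.9% of all genes. For 18 of the 30 every treated rat was nonetheless below every Lean rat, against 11.2% of all genes, with a list median of −0.23 on the log2 scale. Sdhb, of succinate dehydrogenase, was at 172, 166, 163, 158 and 158 CPM in Lean rats 1 to 5 and 134, 148, 129, 133 and 139 CPM in Cmpd 1 rats 1 to 5 (log2 fold change −0.26, SE 0.05, adjusted p = 2.4e-04). Of 11 respiratory genes of mitochondrial DNA, 0 were DEGs and 10 were within 1.5-fold, with a list median of 0.04. Of 25 genes of fatty acid oxidation, 0 were higher, 2 lower and 18 within 1.5-fold, and without Lean rats 1 and 2 there were 1 higher and 3 lower. With all Lean rats the DEGs were 8% of this list, against 16.6% of all genes tested. Bdh1, of ketone metabolism, was at 12.5 ± 2.71 CPM in Lean and 7.49 ± 0.873 CPM in Cmpd 1 rats (log2 fold change −0.74, SE 0.12, adjusted p = 7.3e-05) and was also below Obese (log2 difference −0.62, adjusted p = 0.0032). Of 32 genes of glycolysis and the citric acid cycle, 1 was higher, 2 were lower and 25 were within 1.5-fold, with 1 lower without Lean rats 1 and 2. With all Lean rats the DEGs were 9.38% of this list, against 16.6% of all genes tested. Idh3a was higher at 0.63 and Idh2 lower at −0.69, both isocitrate dehydrogenases, with Idh3a under the fold threshold at 0.58 without Cmpd 1 rat 1.

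Genes often used as marks of brown and beige adipocytes included 5 higher and 3 lower of 16, and without Lean rats 1 and 2 there were 4 higher and 1 lower. The lower calls lost were Cox8b and Prdm16. Cox8b, a respiratory subunit also made in muscle cells, was at 4.87, 14.3, 0.0185, 0.134 and 0 CPM in Lean rats 1 to 5 and 0.106, 0, 0, 0 and 0.0176 CPM in Cmpd 1 rats 1 to 5, so its Lean level rested on the rats that carried muscle transcripts. Without them its edgeR adjusted p was 0.7, and no fold is given, since 3 of 5 treated rats were at 0. Prdm16 had a log2 fold change of −0.68, and without these rats −0.38 (adjusted p = 0.21). It also did not pass without Lean rat 2 alone (−0.42) or without Cmpd 1 rat 1 or 4 (−0.62 and −0.62). Fabp3, a fatty acid carrier of oxidative tissues, was at 27.6, 34.4, 43.2, 37.9 and 28.2 CPM in Lean rats 1 to 5 and 272, 255, 109, 162 and 235 CPM in Cmpd 1 rats 1 to 5 (log2 fold change 2.59, SE 0.22, adjusted p = 2.9e-08). Otop1 was at 3.16 ± 1.33 CPM in Lean and 12.2 ± 4.48 CPM in Cmpd 1 rats (log2 fold change 1.94, SE 0.26, adjusted p = 7.7e-06), and Cited1 had a log2 fold change of 1.19. In Obese rats 1 to 5 Fabp3 was at 266.2, 162.3, 158.9, 206 and 207.5 CPM and Otop1 at 26.09, 15.53, 13.97, 17 and 19.08 CPM. Both genes were thus above every Lean rat in obese fat without drug as well. Against Obese animals 0 of the 16 brown and beige adipocyte genes were higher and 0 lower, with a list median of 0.02 on the log2 scale. Over all genes tested 0.731% were higher and 2.8% lower in that comparison, so these counts are near the shares over all genes. Ucp1, the uncoupling protein that defines these cells, was at 0, 0.0283, 0, 0.436 and 0 CPM in Lean rats 1 to 5 and 0.393, 0.302, 0.0625, 0.0613 and 0.141 CPM in Cmpd 1 rats 1 to 5 and did not pass (log2 fold change 1.09, SE 0.99, adjusted p = 0.41). Lean rat 4 held the highest Ucp1 value of the 10 rats, and without it the gene passed as higher in Cmpd 1 animals (adjusted p = 0.006). No fold is given for that case, since 3 of the other 4 Lean rats were at 0.

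Genes of the molecular clock differed as well, with 4 higher and 2 lower of 18. Arntl and Npas2, of the activating arm, were lower. Npas2 was at 9.81, 9.01, 11.1, 5.81 and 8.0 CPM in Lean rats 1 to 5 and 1.98, 2.04, 2.42, 2.30 and 2.07 CPM in Cmpd 1 rats 1 to 5 (log2 fold change −2.02, SE 0.18, adjusted p = 5.8e-08), and Arntl was at 20.6 ± 4.70 CPM in Lean and 9.90 ± 0.590 CPM in Cmpd 1 rats (log2 fold change −1.05, SE 0.12, adjusted p = 1.6e-06). Bhlhe41 and Cry1, of the repressing arm, were higher at 1.21 and 0.64. The times of day at which the rats were sacrificed were not among the labels used, and their part in these values was not tested.

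Of 29 genes of the TGF-β, BMP and Wnt pathways, 3 were higher and 10 lower. Bmp4, a growth factor of fat cell commitment, was at 34.2, 24.3, 33.1, 26.9 and 26.6 CPM in Lean rats 1 to 5 and 3.45, 5.56, 5.85, 7.81 and 5.03 CPM in Cmpd 1 rats 1 to 5 (log2 fold change −2.40, SE 0.18, adjusted p = 1.0e-08). Ltbp1, which stores latent TGF-β in the matrix, was at 168 ± 11.1 CPM in Lean and 64.7 ± 17.4 CPM in Cmpd 1 rats (log2 fold change −1.38, SE 0.20, adjusted p = 1.4e-05). Sfrp5, a secreted Wnt inhibitor of fat, was at 7.55, 9.81, 0.849, 12.8 and 7.05 CPM in Lean rats 1 to 5 and 0.227, 0.419, 1.23, 0.276 and 0.422 CPM in Cmpd 1 rats 1 to 5 and the groups overlapped through Lean rat 3 and Cmpd 1 rat 3 (log2 fold change −3.89, SE 0.63, adjusted p = 6.1e-05). Among 17 genes of progenitors and fibroblasts 4 were higher and 3 lower, and without Lean rats 1 and 2 there were 2 and 3, with Smoc2 at 39.8, 35.5, 54.7, 43.0 and 51.7 CPM in Lean rats 1 to 5 and 209, 158, 123, 155 and 203 CPM in Cmpd 1 rats 1 to 5 (log2 fold change 1.92, SE 0.19, adjusted p = 2.6e-07) and Thy1 at a log2 fold change of 1.44. Of 23 endothelial genes 0 were higher and 5 lower. Angpt1 and Plvap were at −1.18 and −0.86 on the log2 scale. Sele, the selectin of inflamed endothelium, was at 2.54, 1.58, 2.12, 3.56 and 2.49 CPM in Lean rats 1 to 5 and 0.575, 0.838, 0.646, 0.766 and 0.474 CPM in Cmpd 1 rats 1 to 5 (log2 fold change −1.90, SE 0.28, adjusted p = 2.2e-05) and was also below Obese (log2 difference −1.50, adjusted p = 0.0024). Vegfa, the main growth factor of vessels, was at 170.1 ± 20.4 CPM in Lean and 190.4 ± 8.45 CPM in Cmpd 1 rats and did not pass against Lean (log2 fold change 0.16, SE 0.08, adjusted p = 0.13).

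DEGs were 42.9% of the complement and coagulation list, against 16.6% of all genes tested. They were 18.2% of the antioxidant, 8.7% of the unfolded protein and 5.88% of the hypoxia list, so these 3 were near or under that share. Of 28 genes of complement and coagulation, 4 were higher and 8 lower. C3ar1, a receptor for a complement fragment, was at 11.5 ± 2.23 CPM in Lean and 24.3 ± 5.08 CPM in Cmpd 1 rats (log2 fold change 1.08, SE 0.13, adjusted p = 1.8e-06), and Plaur, the receptor for urokinase, had a log2 fold change of 0.63 that fell to 0.58 without Lean rat 2 and 0.57 without Lean rats 1 and 2, under the fold threshold. Thbd and Procr, which hold coagulation in check on endothelium, were lower at −0.93 and −1.21. Of 22 antioxidant genes, 3 were higher, 1 lower and 17 within 1.5-fold. Gpx1, a glutathione peroxidase, was at 302 ± 22.2 CPM in Lean and 505 ± 56.4 CPM in Cmpd 1 rats (log2 fold change 0.74, SE 0.11, adjusted p = 1.9e-05), while Hmox1, haem oxygenase, stood at 0.63 and fell under the fold threshold without Lean rat 1 (0.58) and without Lean rats 1 and 2 (0.50). Of 23 genes of the unfolded protein response, 1 was higher, 1 lower and 19 within 1.5-fold, or 2 higher and 1 lower without Lean rats 1 and 2, with Atf3 higher at 1.75 and Xbp1 lower at −0.83. Of 17 hypoxia genes, 0 were higher, 1 lower and 12 within 1.5-fold.

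The 10 largest decreases by the same rule were mostly muscle genes. They were Ckm, Acta1, Myh1, Myh7, Hfe2, Mylpf, Pvalb, Pgam2, Myl1 and Lrrtm4, and the first 9 are genes of skeletal muscle. Acta1, skeletal muscle actin, was at 721, 1232, 2.44, 2.06 and 2.17 CPM in Lean rats 1 to 5 and 0.0151, 0.0503, 0.0416, 0.0613 and 0.0351 CPM in Cmpd 1 rats 1 to 5. Lean rats 1 and 2 were far above the other Lean rats, which in turn were above each treated rat, as the rule required. Obese rats 1 to 5 were at 2.16, 1.92, 1.82, 2.04 and 0.206 CPM, so Obese rats 1 to 4 were near Lean rats 3 to 5. Food matched rats 1 to 4 were at 0 to 0.0552 CPM, near the treated rats, and Food matched rat 5 was at 20.7 CPM. The summed level of 17 tested muscle genes was 4239 and 7521 CPM in Lean rats 1 and 2, 43.7 to 45.8 CPM in the other Lean rats and 23.3 to 28.2 CPM in Cmpd 1 rats. All 17 were lower with all Lean rats and 9 were lower without Lean rats 1 and 2, whereas limma-voom did not call any of the 9 named muscle genes (adjusted p = 0.5 for Ckm). Ckm and Myh7 were at 0 in 4 of 5 treated rats, so no fold is given for them. The part of muscle attached to the samples in these differences was not tested.

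Lrrtm4, an adhesion protein of synapses, was at 2.82, 1.10, 4.82, 4.77 and 3.94 CPM in Lean rats 1 to 5 and 0, 0.0168, 0.104, 0 and 0 CPM in Cmpd 1 rats 1 to 5, and was the only decrease of the 10 outside muscle. To see decreases beyond muscle, the 10 largest without Lean rats 1 and 2 were also taken, a choice made after values were seen. The rule kept genes that were lower DEGs with and without these rats and did not overlap between the groups. It also asked for a mean of at least 10 CPM over all 5 Lean rats and a place outside the lists of other tissues. The 10 genes were Sytl5, Chl1, Hfe2, Cpa1, Col6a5, Ccl21, Myom2, Slc22a3, Agt and Vipr2, of which Hfe2 and Myom2 are muscle genes. Hfe2 was at 25.9, 50.2, 0.314, 0.269 and 0.107 CPM in Lean rats 1 to 5, so it met the 10 CPM mark only through Lean rats 1 and 2. Agt, which encodes angiotensinogen, the precursor of angiotensin, and lies on chromosome 19 at 57321640 to 57333433 in rn6, was at 693, 539, 625, 557 and 630.5 CPM in Lean rats 1 to 5 and 54.0, 47.9, 46.1, 53.4 and 54.6 CPM in Cmpd 1 rats 1 to 5. The lowest Lean rat was far above the highest treated rat (log2 fold change −3.57, SE 0.12, adjusted p = 5.5e-14), and the Obese mean was 64.6 CPM. Chl1, a cell adhesion molecule, was at 14.4, 13.4, 20.6, 22.2 and 19.9 CPM in Lean rats 1 to 5 and 0.197, 0.553, 0.812, 0.337 and 0.668 CPM in Cmpd 1 rats 1 to 5 (log2 fold change −5.13, SE 0.40, adjusted p = 1.2e-08). Slc22a3, a transporter of organic cations and monoamines, was at 55.5, 52.4, 36.2, 44.0 and 44.5 CPM in Lean rats 1 to 5 and 1.27, 2.46, 3.19, 7.35 and 1.86 CPM in Cmpd 1 rats 1 to 5 (log2 fold change −3.91, SE 0.34, adjusted p = 4.1e-08). Cpa1, a carboxypeptidase best known from the pancreas, was at 38.5 ± 11.3 CPM in Lean and 1.64 ± 0.745 CPM in Cmpd 1 rats, Sytl5, of vesicle traffic, was at 10.2 ± 1.61 CPM in Lean and 0.282 ± 0.169 CPM in Cmpd 1 rats, and Vipr2, a receptor for vasoactive intestinal peptide, was at 10.9 ± 2.90 CPM in Lean and 1.33 ± 0.138 CPM in Cmpd 1 rats. Non-overlap between the groups was part of the rule that chose these genes.

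The 5 genes with the smallest adjusted p in each direction were also named after values were seen. Among the lower genes these were Agt, Usp13, Acss3, Mpo and Rbp4. Usp13, a deubiquitinase, was at 35.7, 40.3, 35.3, 37.0 and 35.9 CPM in Lean rats 1 to 5 and 7.34, 9.15, 9.04, 10.02 and 9.09 CPM in Cmpd 1 rats 1 to 5 (log2 fold change −2.05, SE 0.09, adjusted p = 5.9e-12). Acss3, an acyl-CoA synthetase of mitochondria, was at 154, 177, 169.6, 165 and 157 CPM in Lean rats 1 to 5 and 22.6, 21.8, 21.7, 30.3 and 19.7 CPM in Cmpd 1 rats 1 to 5 (log2 fold change −2.83, SE 0.13, adjusted p = 1.2e-11). Mpo, myeloperoxidase, was at 559, 474, 467, 478 and 504 CPM in Lean rats 1 to 5 and 127, 118, 109.6, 143 and 135 CPM in Cmpd 1 rats 1 to 5 (log2 fold change −1.97, SE 0.11, adjusted p = 1.4e-10). All 3 were also low in Obese rats, with means of 8.88, 15.6 and 128 CPM. Among the higher genes they were Rab31, Cyp4b1, Pla2g7, Clec4a3 and Htra4. Cyp4b1, a cytochrome P450, was at 109, 78.3, 132, 148 and 108 CPM in Lean rats 1 to 5 and 1077, 992, 664, 595 and 1037 CPM in Cmpd 1 rats 1 to 5 (log2 fold change 2.92, SE 0.20, adjusted p = 2.4e-09). Pla2g7, which breaks down platelet-activating factor, was at 5.40 ± 1.16 CPM in Lean and 28.1 ± 5.60 CPM in Cmpd 1 rats (log2 fold change 2.38, SE 0.17, adjusted p = 3.9e-09), and Rab31, a small GTPase of vesicle traffic, was within a narrow range of 136 ± 12.1 CPM in Lean and 233 ± 2.54 CPM in Cmpd 1 rats (log2 fold change 0.78, SE 0.05, adjusted p = 1.1e-09).

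Beyond muscle, many listed transcripts of other tissues were lower in treated fat, though the summed levels of several lists overlapped between the groups. Of 10 nerve and Schwann cell genes 8 were lower, with summed levels of 2132 to 2468 CPM in Lean and 1507 to 1685 CPM in Cmpd 1 rats. Most of these sums was S100b, which is also made outside nerve and was at 2055 ± 129 CPM in Lean and 1451 ± 84.0 CPM in Cmpd 1 rats. The sums of the other 9 genes overlapped, at 113 to 472 CPM in Lean and 112 to 143 CPM in Cmpd 1 rats. Of 9 blood genes 4 were lower and 1 higher, and the summed levels were 1334 to 3534 CPM in Lean and 485.6 to 1468 CPM in treated rats. Hbb, a globin chain, was at 1192, 1013, 549, 1065 and 1435 CPM in Lean rats 1 to 5 and 240.2, 206, 240.7, 225 and 573 CPM in Cmpd 1 rats 1 to 5, and Cmpd 1 rat 5 was above Lean rat 3. Alb, albumin, was at 150, 91.2, 99.2, 95.7 and 113 CPM in Lean rats 1 to 5 and 16.9, 14.5, 18.9, 24.0 and 15.5 CPM in Cmpd 1 rats 1 to 5 (log2 fold change −2.62, SE 0.18, adjusted p = 3.9e-09). Obese rats 1 to 5 were as low for Alb, at 17.1, 17.8, 16.1, 14.6 and 15.2 CPM. Apob and Apoa1 rested on Lean rat 5 alone, at 36.2 and 46.1 CPM against at most 0.246 and 0.509 CPM in the other 9 rats. Of 5 mesothelium genes 4 were lower and 0 were without Lean rats 1 and 2. Msln was at 167, 50.8, 4.58, 9.01 and 1.93 CPM in Lean rats 1 to 5 and 0.439, 0.251, 4.60, 1.13 and 0.369 CPM in Cmpd 1 rats 1 to 5, with a log2 fold change of −5.16. It stood at −1.97 (adjusted p = 0.32) without Lean rats 1 and 2 and at −3.65 (adjusted p = 0.056) without Lean rat 1. Of 8 smooth muscle genes 7 were lower with all Lean rats and 1 without Lean rats 1 and 2. Of 12 genes of gland and skin epithelium 1 was higher and 8 were lower, with 5 lower without Lean rats 1 and 2, and the summed levels were 37.9 to 240.7 CPM in Lean and 47.7 to 62.7 CPM in Cmpd 1 rats. Of 8 tested genes of liver and intestine 5 were lower. The summed levels of this list overlapped, at 554 to 719 CPM in Lean and 465 to 583 CPM in Cmpd 1 rats. Most of each sum was the gene Tf, at 437.5 to 549.6 CPM in Lean and 440.8 to 568 CPM in Cmpd 1 rats. The overlap of the sums thus says little about the other genes of the list, and Alb itself did not overlap. The part of these tissues in other results was not tested.

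**Figure D4:**
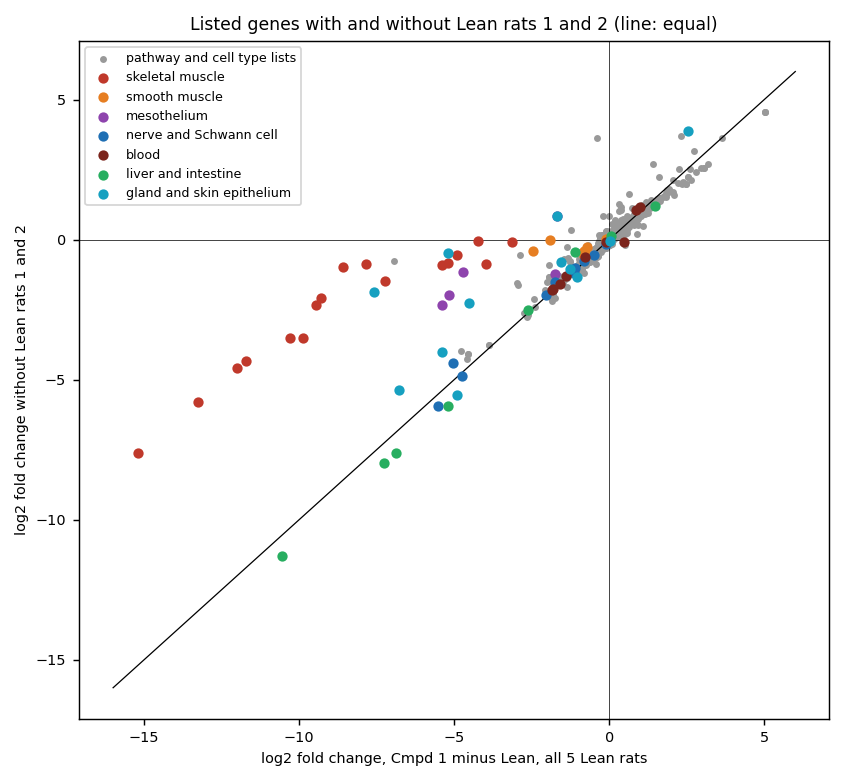
Log2 fold change of Cmpd 1 versus Lean for each listed gene with all 5 Lean rats (horizontal) and without Lean rats 1 and 2 (vertical), with a line where both are equal. Most pathway and cell type genes in grey lie near the line, with Cox8b among the exceptions. Skeletal muscle genes in red lie above it, since their differences shrink without these rats. The list medians of smooth muscle and mesothelium also shrink, from −0.81 to −0.41 and from −4.70 to −1.23.

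Some genes lay outside every other rat of the series. All 5 Cmpd 1 rats were above the other 15 rats for 75 genes (0.425%) and below them for 33 genes (0.187%). These values chose the genes that follow, so their folds are a description. Epn3, an adaptor of endocytosis, was at 0.372, 1.30, 1.07, 1.12 and 0.520 CPM in Lean rats 1 to 5 and 3.56, 2.87, 4.17, 3.68 and 5.29 CPM in Cmpd 1 rats 1 to 5, with an Obese mean of 2.06 CPM (log2 fold change 2.15, SE 0.27, adjusted p = 3.2e-06). Enox1 was at 3.96 ± 0.377 CPM in Lean and 7.26 ± 0.318 CPM in Cmpd 1 rats (log2 fold change 0.88, SE 0.08, adjusted p = 4.2e-08). Hpx, which encodes the haem carrier hemopexin, and Tbx15, a transcription factor of subcutaneous fat, had log2 fold changes of 1.14 and 0.91 over Lean. Sstr3, a somatostatin receptor, had 0.91, and without Lean rats 1 and 2 it fell to 0.55, under the fold threshold. On the lower side, Camk2b, a calcium-dependent kinase, was at 77.6, 75.5, 75.6, 80.0 and 91.1 CPM in Lean rats 1 to 5 and 10.4, 19.6, 12.8, 13.5 and 19.2 CPM in Cmpd 1 rats 1 to 5. Its Obese mean was 28.7 CPM, so the treated rats lay below Obese rats that were themselves below Lean rats (log2 fold change −2.40, SE 0.18, adjusted p = 8.8e-09). Il13ra2, a decoy receptor for interleukin 13, was at 2.31, 2.60, 1.25, 1.78 and 1.28 CPM in Lean rats 1 to 5 and 0.257, 0.503, 0.312, 0.276 and 0.211 CPM in Cmpd 1 rats 1 to 5 (log2 fold change −2.55, SE 0.26, adjusted p = 2.6e-07). Myh14, a myosin outside muscle, was at 12.6 ± 4.48 CPM in Lean and 2.83 ± 0.696 CPM in Cmpd 1 rats (log2 fold change −2.15, SE 0.21, adjusted p = 1.5e-07), and Tecta had a log2 fold change of −2.28. For these lower genes the differences from Obese were −0.93 for Camk2b, −1.55 for Il13ra2, −0.72 for Myh14 and −1.07 for Tecta on the log2 scale. Over all genes, 0.731% were higher and 2.8% lower in Cmpd 1 than in Obese animals by the DEG rule.

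**Figure D5:**
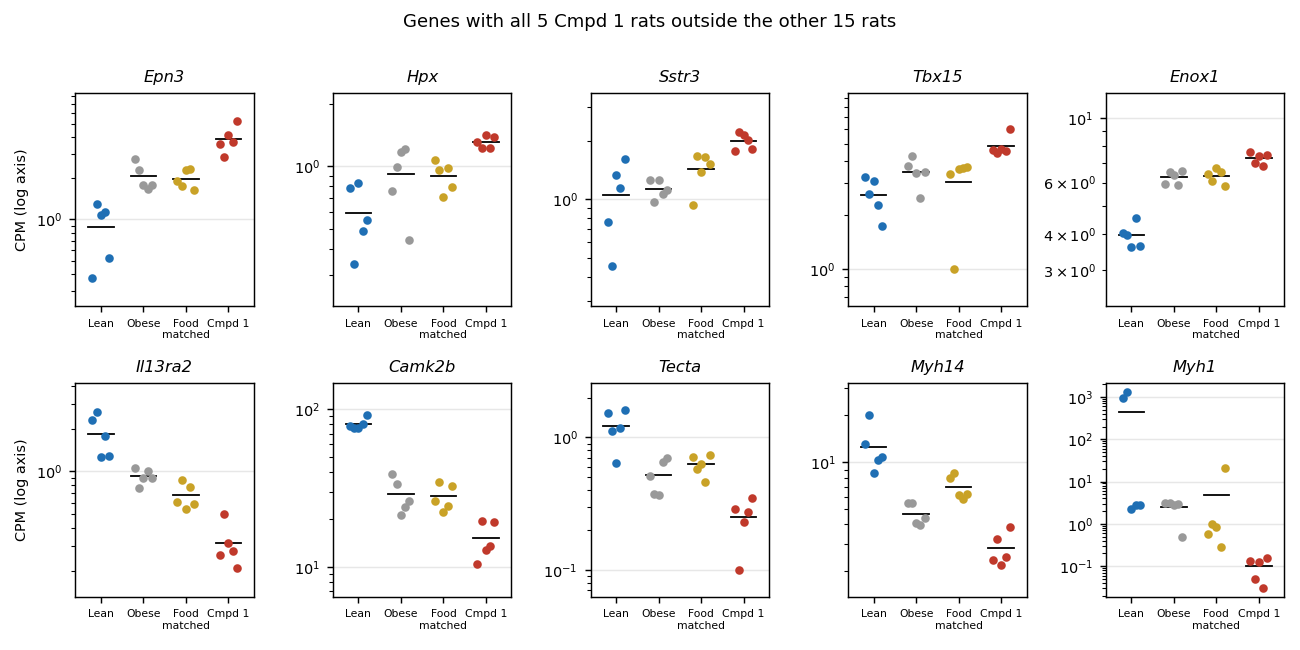
Level in CPM, on log axes, of the 5 genes with the largest increase and the 5 with the largest decrease among those where all 5 Cmpd 1 rats lay outside the other 15 rats, with a line at each group's mean. Camk2b falls from 80.0 CPM in Lean to 28.7 in Obese and 15.1 in Cmpd 1 rats, and Myh1 in Lean rats rests on rats 1 and 2.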

How the data were processed

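Bulk RNA-seq of iWAT was measured in 20 rats, 5 in each of 4 groups taken from the sample titles and characteristics. The Food matched rats carry a lean phenotype label but an obese title, and were read as obese by title; they enter only the shared spread and the comparisons of 15 other rats. RNA libraries were made with a stranded kit. The deposited count table was made by the authors by mapping reads to the rat genome, for which the study's methods name rn6, and counting with featureCounts the reads that mapped to 1 place. Among tools, the notes of the submitters list STAR 2.5.2 and Subread 1.5.1, and among builds they list GRCh38, which is a human build, so the build of the mapping rests on the methods. Whether featureCounts used strand is not given in the sources used here, so overlapping antisense genes cannot be told apart, and reads shared by near-identical gene copies were not counted.

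From the counts, genes at 0 in at least 10 of 20 libraries were dropped (14892 of 32545 genes, 10187 of them without a read in any library), and 17653 were tested. The main fit was edgeR 4.0.16 (R 4.3.3), with TMM scaling, 1 model of the 4 groups and the quasi-likelihood test, with Benjamini-Hochberg adjustment over all genes tested. A DEG had a fold over 1.5 and an adjusted p under 0.05. Levels are CPM on TMM-scaled library sizes, ± gives the SD of 5 rats, and SE is the standard error of the log2 fold change. Alternatives were limma-voom (limma 3.58.1), DESeq2 1.42.0, other scalings and filters, the 10 libraries alone, thinning to the smallest library, a replicate block and leaving out libraries. Of these fits, only the main edgeR fit was also run on simulated counts.

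The comparison and the gene lists were chosen with earlier results of these data known. The lists hold 851 distinct genes, of which 810 passed the filter and were tested and 830 had a row. The genes named were the 10 largest DEGs in each direction that did not overlap between groups, had at least 1 CPM in the higher group and stayed DEGs without Lean rats 1 and 2; up to 4 DEGs of smallest adjusted p per list; up to 2 members per list with the narrowest interval within 1.5-fold; genes that the study names for iWAT; up to 5 genes per direction outside all 15 other rats; and the first gene of each list of other tissues. Some genes that these rules name are not reported here. Other list members named in the text, such as Adipoq, Plin1, Mki67, Top2a, Cdk1, Gpnmb, Itgax, Msr1, Plin2, Ucp1, Scd1, S100b, Cox8b, Prdm16 and the Cdkn genes, were chosen after their values were seen. Leaving Lean rats 1, 2 and 5 out together was likewise chosen after the data were seen. Promoter windows are RefSeq sequence of build GRCr8, matched by symbol. Each of the 20 count columns was assigned to a sample.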

Additional observations from a re-analysis of the deposited data

Results flagged for a closer look

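For each gene named, the highest and the lowest of the 5 rats of a group were compared with the nearest other rat. Gaps and ranges were taken on the log2 scale after 0.05 was added to each CPM, which weighs on genes near 0. On that scale 34 of 450 groups (7.56%) held a rat whose gap to the nearest was over 0.71 of the group's range. Chance flags about 1 in 20 groups, and genes that vary together are not independent. Cmpd 1 rat 1 stood apart for Thbd at 38.9 CPM against 56.9, Fbln2 at 253 CPM against 348, Cd163 at 37.9 CPM against 89.2, Idh3a at 181 CPM against 151, Cox8b at 0.106 CPM against 0.0176, F13a1 at 55.2 CPM against 147, Plvap at 37.0 CPM against 47.7, Col4a5 at 1.81 CPM against 5.55 and Ltbp1 at 36.2 CPM against 64.9 CPM in the nearest rat of its group. Cmpd 1 rat 2 stood apart for Vipr2 at 1.57 CPM against 1.32, Ckm at 0.0168 CPM against 0 and Myh7 at 0.0168 CPM against 0 CPM in the nearest rat of its group. Cmpd 1 rat 3 stood apart for Mcoln1 at 28.9 CPM against 31.2, Zap70 at 1.15 CPM against 1.84, Lrrtm4 at 0.104 CPM against 0.0168 and Acp5 at 50.7 CPM against 60.2 CPM in the nearest rat of its group. Cmpd 1 rat 4 stood apart for Cd44 at 80.7 CPM against 108, Bckdhb at 67.5 CPM against 58.9, Wfdc8 at 0.613 CPM against 1.32 and Ccl19 at 0 CPM against 0.158 CPM in the nearest rat of its group. Cmpd 1 rat 5 stood apart for Apob at 0.246 CPM against 0.0302, Tbx15 at 5.99 CPM against 4.69, Hfe2 at 0.0176 CPM against 0 and Hbb at 573 CPM against 240.7 CPM in the nearest rat of its group. Lean rat 1 stood apart for Il16 at 46.7 CPM against 31.3 CPM in the nearest rat of its group. Lean rat 2 stood apart for Cxcl13 at 31.1 CPM against 55.9 and Prdm16 at 7.86 CPM against 4.40 CPM in the nearest rat of its group. Lean rat 3 stood apart for Sfrp5 at 0.849 CPM against 7.05, Acss2 at 109 CPM against 104 and Stat5a at 46.8 CPM against 49.0 CPM in the nearest rat of its group. Lean rat 4 stood apart for Ucp1 at 0.436 CPM against 0.0283 and Ccl4 at 1.58 CPM against 1.07 CPM in the nearest rat of its group. Lean rat 5 stood apart for Apob at 36.2 CPM against 0.0979 and Apoa1 at 46.1 CPM against 0.509 CPM in the nearest rat of its group. Cmpd 1 rat 1 held 9 of the 34 values, and all but Cox8b and Idh3a were the lowest of its group, among them the genes of resident macrophages Cd163 and F13a1 and of endothelium Plvap and Thbd. Ckm, Myh7 and Hfe2 in treated rats rest on single reads.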

How the results depend on the processing

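Under other tests, scalings and filters the number of DEGs of Cmpd 1 versus Lean lay between 2342, without Lean rats 1 and 2, and 3035, with every gene with any read tested, against 2926 in the fit reported. limma-voom called 2685, without Cd3e, Cox8b, Msln, Apob, Apoa1 and the muscle genes named, and DESeq2 2957, and scaling by library size alone gave 2939. Leaving out 1 rat at a time gave 2586 to 3000 DEGs, of which 1210 to 1388 were higher and 1376 to 1651 lower. Leaving out Lean rats 1, 2 and 5 together, an alternative chosen after seeing the data that keeps 2 Lean rats, gave 1921 DEGs, with 1043 higher and 878 lower. Without these 3 rats Apoa1 stood at 0.58 on the log2 scale (adjusted p = 0.46), reversed from −5.21. Of 225 genes named, 184 kept their call under every alternative run. The replicate block gave 2785 DEGs, 1302 higher and 1483 lower, and it moved the calls of Irs1 (−0.58, under the fold threshold) and Apoa1 (−2.75, adjusted p = 0.15). No sign was seen that the numbers pair the rats. The correlation of same-numbered Lean and Cmpd 1 rats ran from −0.078 to 0.0081, with 0 of 5 pairs over 0.1. In 0 cases was a Lean rat closest to the treated rat of the same number. Transcripts of other tissues in Lean rats 1 and 2 also enter these correlations, so a weak pairing could go unseen. With 31716457 to 68048796 reads per library, values near 0.0168 CPM are single reads. No rat or tissue label tells whether muscle, lymph node or mesothelium was dissected with the fat, and the cause of the calls lost without Lean rats 1 and 2 was not tested.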
